A study of Mus musculus with 4 samples.

Results

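The measurements described here are those of 10 mature miRNA taken as markers of cells other than neurons, read in small RNA libraries of cultured mouse cortical neurons. Their restriction to those cells was not tested here. They were chosen by their known lineage from the 1966 mature miRNA listed in the count tables, and all 10 have a line in every table. The erythroid miRNA are mmu-miR-451a and mmu-miR-144-3p. The endothelial miRNA are mmu-miR-126a-3p and mmu-miR-126a-5p. The haematopoietic and myeloid miRNA are mmu-miR-142a-3p, mmu-miR-142a-5p, mmu-miR-150-5p and mmu-miR-223-3p. The mural miRNA, of pericytes and smooth muscle of the vessel wall, are mmu-miR-143-3p and mmu-miR-145a-5p.

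The study compared cortical neurons of WT embryos with those of APP/PS1 (TgAD) embryos, a model of Alzheimer's disease, with 2 libraries per genotype. TgAD animals carry a chimeric mouse/human APP with the Swedish mutations and the human PSEN1dE9 allele, both under mouse prion promoter elements that drive expression mainly in neurons of the central nervous system, on a B6C3 background. Cortex was taken at E16.5 according to the labels (E16 in the methods), dissociated with trypsin, plated in medium with serum, and then kept without serum, with B27 and N2 supplements, until 5 days in vitro, for both genotypes and without further treatment. According to the methods, each embryo was cultured separately and genotyped afterwards. The cells were neither sorted nor gated by a cell type marker in the sources used here.

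A miRNA is cut from a hairpin precursor, which can give a mature product from its 5p arm and another from its 3p arm, and its bases 2 to 8, the seed, pair with target transcripts. miR-144 and miR-451a come from 1 primary transcript that is turned on in maturing red cells, and the short hairpin of miR-451a is cut by Argonaute 2 rather than by Dicer. miR-126a comes from a gene of endothelial cells, miR-142a is made across blood cell types and marks microglia within the brain, miR-223 belongs to the myeloid lineage and miR-150 to mature lymphocytes. miR-143 and miR-145a share a primary transcript of smooth muscle, pericytes and other mesenchymal cells. In a culture of neurons these miRNA are therefore a possible sign of other cells, or of their RNA, but not a count of those cells. Members of the same lineage differed widely in reads, as given below. Fewer cells of a type cannot be told apart from less RNA per cell in such libraries.

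The mature sequences of 6 of the 10 were taken from RefSeq for GRCm38.p6. They are shown, with the seed in capitals, because the reads of each miRNA rest on its mature sequence and on its place in the genome. The sequences of the erythroid and haematopoietic miRNA, followed by that of endothelial miR-126a-3p, were:
mmu-miR-451a: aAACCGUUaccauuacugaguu
mmu-miR-144-3p: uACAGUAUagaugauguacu
mmu-miR-142a-5p: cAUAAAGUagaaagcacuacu
mmu-miR-142a-3p: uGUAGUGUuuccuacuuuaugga
mmu-miR-223-3p: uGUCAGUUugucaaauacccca
mmu-miR-126a-3p: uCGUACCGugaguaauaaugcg
They lie at chr11:78073186-78073207, chr11:78073047-78073066, chr11:87756867-87756887, chr11:87756903-87756925, chrX:96242884-96242905 and chr2:26591402-26591423, in that order and all on the plus strand. miR-126a-5p, miR-150-5p, miR-143-3p and miR-145a-5p are given by name only. The 6 seeds differ from each other, and 0 other listed miRNA with a sequence carry any of them whole. Bases 2 to 7 of miR-144-3p also occur in miR-101a-3p, the only such miRNA among those with a sequence. Its counts were 55645 (WT 1), 80151 (WT 2), 27406 (TgAD 1) and 36140 (TgAD 2). Bases 2 to 7 of miR-223-3p also occur in miR-344f-5p, with 5 (WT 1), 1 (WT 2), 4 (TgAD 1) and 11 (TgAD 2) reads. The listed sequence closest to miR-451a was 8 edits away (miR-295-3p), and the one closest to miR-142a-5p was 4 edits away (miR-3964).

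Opposite 2 of these arms, the annotation holds a mature miRNA on the minus strand. miR-126b-5p lies at chr2:26591399-26591420 and covers 19 nucleotides of miR-126a-3p. miR-142b lies at chr11:87756906-87756925 and covers 20 nucleotides of miR-142a-3p. Their sequences, again with the seed in capitals, are shown because each is read from the other strand of the positions it shares with the arm it covers:
mmu-miR-126b-5p: aUUAUUACucacgguacgaguu
mmu-miR-142b: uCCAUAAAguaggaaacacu

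In GENCODE M21, an annotation of GRCm38, the hairpins Mir144 (chr11:78073005-78073070, plus strand) and Mir451a (chr11:78073170-78073241, plus strand) lie 99 nucleotides apart, outside any annotated host gene. Mir142 (chr11:87756864-87756927, plus strand) lies in an intron of the lincRNA Mir142hg. Mir126a (chr2:26591357-26591429, plus strand) lies within Egfl7, a protein-coding gene of endothelial cells, in an intron of 8 of the 9 transcripts that span it and in an exon of the other, a retained intron. Mir150 (chr7:45121757-45121821, plus strand) has no annotated host. Mir223 (chrX:96242817-96242926, plus strand) overlaps an exon of the noncoding gene F630028O10Rik. On the strand opposite to Mir126a, Mir142 and Mir451a the annotation holds the hairpins Mir126b, Mir142b and Mir451b, but mature miR-451b does not overlap mature miR-451a.

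The libraries held 2070204 and 2752599 counted reads for WT and 2758525 and 4811010 for TgAD, and 3 reads, taken as the limit that a count of 0 allows, corresponded to between 0.746 and 1.28 CPM. CPM are reads relative to library sizes that edgeR's TMM method had adjusted, and since mature miRNA are of nearly one length they were compared between miRNA without a correction for length. Intervals and limits cover counting error only. A second deposited table holds normalized values, and its column names and the count tables did not match. The reads behind the column named for WT 1 were equal to the counts of TgAD 1 for all 674 miRNA it lists, those behind WT 2 to the counts of WT 1, and those behind TgAD 1 to the counts of TgAD 2. The column named for TgAD 2 matched none of the count tables, and the counts of WT 2 matched none of the columns. The results below rest on the count tables and their labels, and the values from the normalized table, taken by its column names, are given beside them.

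Of the 10 miRNA, 7 had at least 1 read and 3 had 0 reads in all 4 libraries (plot of reads per library). miR-451a and miR-143-3p had at least 2051 reads in every library, miR-145a-5p and miR-142a-5p between 21 and 60, and miR-223-3p, miR-150-5p and miR-144-3p at most 8. miR-126a-3p, miR-126a-5p and miR-142a-3p were listed at 0.

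**Figure D1:**
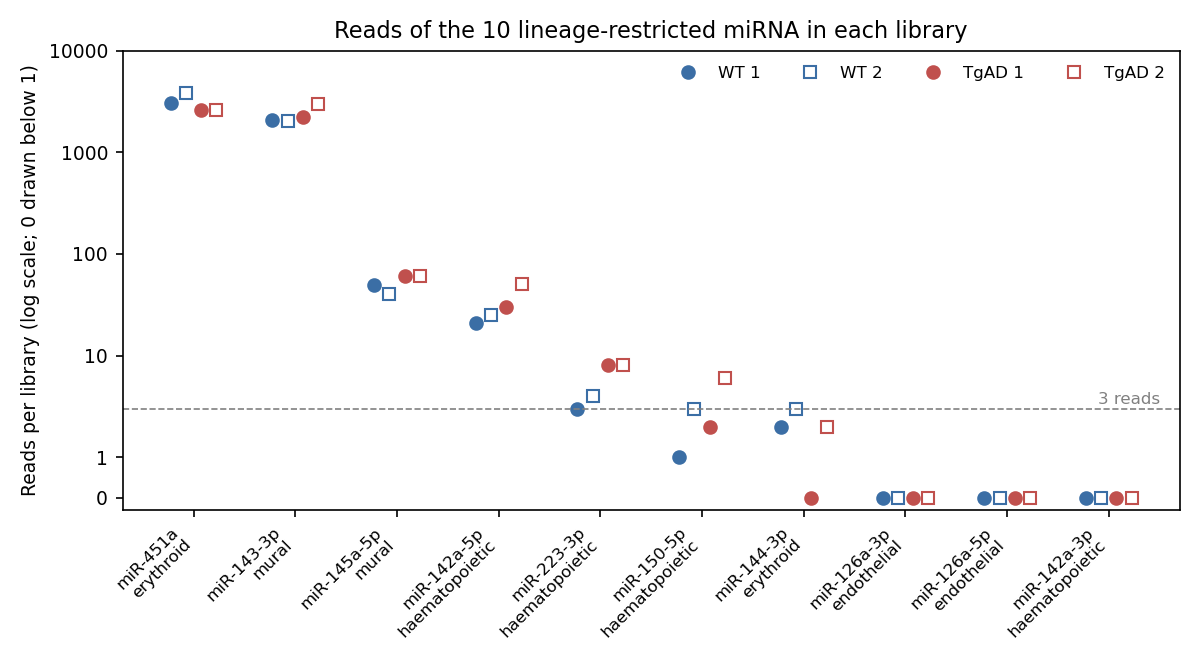
Reads of each of the 10 miRNA (x axis, with lineage) in each library (y axis, log scale, with 0 drawn below 1); circles are library 1 and squares library 2 of each genotype, and the dashed line is 3 reads. miR-451a and miR-143-3p lie between 2051 and 3873 reads, and miR-126a-3p, miR-126a-5p and miR-142a-3p lie at 0 in all 4 libraries.

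miR-451a, the most abundant erythroid miRNA, was counted 3076 times in WT 1, 3873 times in WT 2, 2625 times in TgAD 1 and 2595 times in TgAD 2. These counts are 1309 and 1330 CPM for WT, and 956 and 645 CPM for TgAD. By reads it was number 70 and number 68 of all listed miRNA in WT, and number 85 and number 109 in TgAD. Both TgAD libraries lay below both WT libraries, and they differed more from each other than the WT libraries did.

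The reads of miR-451a lay within the wide range of the 10 neuron-enriched miRNA. miR-128-3p, the highest of these, and miR-137-3p, counted 9395 and 11671 times (WT) and 4476 and 4626 times (TgAD), were above miR-451a in each library. miR-129-5p and miR-124-3p, with 48 and 14 reads in all, and miR-9-5p and miR-9-3p, at 0, were below it. The neuronal miRNA next described were chosen after their values were seen, for reads close to those of the members. miR-138-5p was counted 3885 and 3566 times (WT) and 3330 and 2616 times (TgAD), between 0.921 and 1.27 times the reads of miR-451a in the same library. miR-218-5p, of motor and other neurons, had between 0.578 and 2.53 times the reads of miR-451a, with the highest ratio in TgAD 2. miR-153-3p, another neuronal miRNA, had fewer reads than miR-143-3p in each of the 4 libraries, with ratios between 0.438 and 0.676.

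miR-144-3p, from the same primary transcript as miR-451a, was counted 2 and 3 times (WT) and 0 and 2 times (TgAD). The sum over the libraries was 7 reads (95% Poisson interval 2.81 to 14.4), against 12169 reads of miR-451a, a ratio of 1738 (95% interval 843 to 4325). In each library miR-144-3p was at or under the floor of 3 reads, so no fold between genotypes is given. Its other arm, miR-144-5p, was counted 1 and 0 times (WT) and 1 and 2 times (TgAD). Of the other erythroid miRNA on the list, miR-486a-5p and miR-486b-5p had 0 reads in all 4 libraries. Neither has an entry among the sequences, so whether an arm lies opposite was not checked, and these zeros are listed values only.

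miR-143-3p, the main product of the mural pair, was counted 2067 times in WT 1, 2051 times in WT 2, 2208 times in TgAD 1 and 2981 times in TgAD 2, between number 91 and number 100 by reads. On the CPM scale WT lay at 879 and 704, and TgAD at 804 and 741, so that both TgAD libraries lay between the WT libraries. In 3 of the 4 libraries it was below miR-451a, and in TgAD 2 it was above, with 0.871 reads of miR-451a per read of miR-143-3p against 1.49, 1.89 and 1.19 in WT 1, WT 2 and TgAD 1. The passenger arm miR-143-5p had between 5 and 7 reads, and the main arm made up between 99.68% and 99.77% of the reads of the hairpin.

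miR-145a-5p was counted 50 and 40 times (WT) and 60 and 60 times (TgAD), which is 21.3 and 13.7 CPM for WT, and 21.9 and 14.9 CPM for TgAD. Its genotypes overlapped. Although it shares a primary transcript with miR-143, there were between 36.8 and 51.3 reads of miR-143-3p for each read of miR-145a-5p, and the 95% counting intervals of the 4 libraries (28.5 to 48.4 in TgAD 1, the lowest, and 37.5 to 72.0 in WT 2, the highest) overlapped. miR-145a-3p, its passenger arm, was at 0 in both WT libraries and was counted 6 times in TgAD 1 and 9 times in TgAD 2. The hairpins lie on chromosome 18 of GRCm38 on the minus strand, Mir145a from 61647825 to 61647894 and Mir143 from 61649196 to 61649258, with 1301 nucleotides between them.

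miR-142a-5p, the highest of the haematopoietic miRNA, was counted 21 times in WT 1, 25 times in WT 2, 30 times in TgAD 1 and 51 times in TgAD 2. On the CPM scale WT lay at 8.93 and 8.58, and TgAD at 10.9 and 12.7, with both TgAD libraries above both WT libraries. miR-223-3p was counted 3 and 4 times (WT) and 8 and 8 times (TgAD), or between 1.28 and 2.91 CPM, and was at the floor of 3 reads in WT 1. miR-150-5p was counted 1 and 3 times (WT) and 2 and 6 times (TgAD), and was above the floor in TgAD 2. Neither passed the filter on low counts, so they were not part of the comparison of genotypes below, and their passenger arms miR-223-5p and miR-150-3p had between 0 and 3 reads.

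The 4 haematopoietic miRNA together took 25, 32, 40 and 65 reads in WT 1, WT 2, TgAD 1 and TgAD 2, or between 0.00116% and 0.00145% of the counted reads. In TgAD 1, the highest, the exact 95% binomial interval ran from 0.00104% to 0.00197%, and it overlapped those of the other 3 libraries. The erythroid pair took 0.149% and 0.141% in WT and 0.0952% and 0.0540% in TgAD libraries, and the mural pair 0.102% and 0.0760% in WT and 0.0822% and 0.0632% in TgAD libraries. All 10 together took 0.252% and 0.218% in WT and 0.179% and 0.119% in TgAD libraries. miR-451a and miR-143-3p supplied nearly all of these reads, miR-451a between 45.5% and 64.6% and miR-143-3p between 34.2% and 52.3%. The sums take miR-142a-3p, miR-126a-3p and miR-126a-5p at their listed 0, and the intervals do not cover any of their reads left uncounted.

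Of the 3 miRNA listed at 0, miR-126a-3p and miR-142a-3p are covered by a mature miRNA on the other strand, and miR-126a-5p comes from a hairpin that overlaps Mir126b. The arms miR-126b-5p and miR-142b, which cover them, also had 0 reads in all 4 libraries. miR-126b-3p, on the minus strand within the span of the Mir126a hairpin (chr2:26591363-26591385), was counted 2 times in WT 1 and 1 time in WT 2, and was at 0 in TgAD. miR-126a-5p has no entry among the sequences, so whether miR-126b-3p lies opposite it was not checked. The 4 other members with a sequence, miR-451a, miR-144-3p, miR-142a-5p and miR-223-3p, have no mature miRNA opposite, and each had reads. miR-142a-5p comes from the same hairpin as miR-142a-3p.

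The share of miRNA at 0 differed with the place in the annotation across the whole table (plot by place in the annotation). Of the 1675 listed miRNA with a RefSeq sequence, 69 overlap a mature miRNA on the other strand by at least 1 nucleotide, and 60 of these had 0 reads in all 4 libraries (87.0%). The highest of them, miR-497b, had 118 reads over the 4 libraries. Of the 1557 miRNA that lie at 1 locus in that table with no arm opposite, 590 had 0 reads (37.9%), and 586 had at least 10 reads in total (37.6%). Of the 49 whose sequence lies at several loci, 26 had 0 reads (53.1%), and 20 had at least 10 (40.8%). An opposite arm without an entry among the sequences was not seen, so these last 2 classes can hold miRNA that have one. How reads on overlapping annotations were counted is not given in the sources used here, and its part in these zeros was not tested. A count of 0 for miR-126a-3p, miR-126a-5p or miR-142a-3p is thus given as a listed value, and not as a level of endothelial or blood cells. At this depth a 0 allows up to 0.000145% of the reads counted in WT 1, the shallowest library. In TgAD 2, the deepest, it allows up to 6.24e-05%. Both limits hold only where all reads of a miRNA were counted, which is not known for the miRNA just named.

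**Figure D2:**
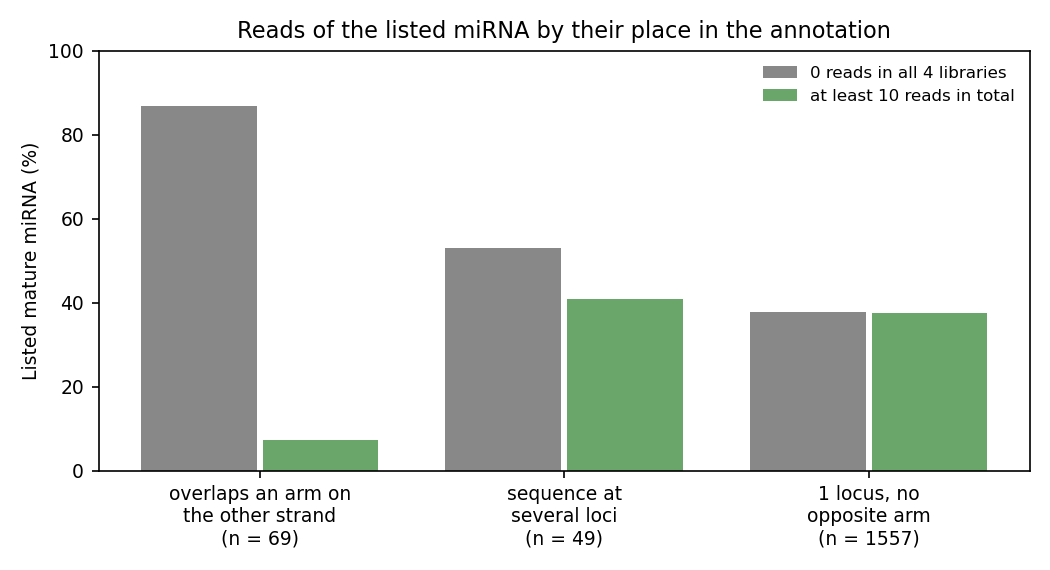
Percent of listed mature miRNA (y axis) with 0 reads in all 4 libraries (grey) and with at least 10 reads in total (green), for arms that overlap a mature arm on the other strand (n = 69), sequences at several loci (n = 49) and sequences at 1 locus with no opposite arm (n = 1557). Of the first class 87.0% are at 0, and of the last 37.9%.

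Markers of other cell types included several miRNA at 0 with an arm opposite. Of 10 miRNA enriched in neurons, 8 had at least 10 reads over the libraries, and miR-128-3p was the highest, with 43009 and 96201 reads (WT) and 230643 and 240174 reads (TgAD). miR-9-5p and miR-9-3p, which mark neural progenitors and neurons, were at 0 in all 4 libraries, and both overlap an arm of miR-9b on the other strand. miR-129-5p, another neuronal miRNA with an arm opposite, was not at 0 and had 48 reads in all. miR-124-3p, a miRNA abundant in brain neurons and without an entry among the sequences, had 14 reads in all. Both oligodendroglial miRNA, miR-219a-5p and miR-338-3p, were at 0 and overlap an opposite arm. The levels of the neuronal list as a whole are for this reason given beside those of the 10 miRNA and not as a measure of how many cells were neurons.

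miRNA of tissues that are not part of the cortex were listed for comparison. Of 5 muscle miRNA, miR-206-3p was the highest, counted 7 and 13 times (WT) and 6 and 16 times (TgAD), miR-1a-3p and miR-133a-3p were at 0, and the liver miRNA miR-122-5p was at 0. miR-1a-3p, miR-133a-3p and miR-122-5p have no entry among the sequences, so whether an arm lies opposite was not checked. Of 7 epithelial miRNA, miR-200c-3p was the highest, counted 26 and 36 times (WT) and 12 and 11 times (TgAD), and miR-203-3p, which has an arm opposite, was at 0. miR-142a-5p, with 21 to 51 reads, was of the same order as miR-200c-3p, and miR-223-3p, with 3 to 8 reads, as miR-206-3p. miR-451a and miR-143-3p were far above both in each library. Of the 3 glial and inflammatory miRNA, miR-21a-5p, widely expressed and raised in reactive astrocytes, was the highest, counted 40266 and 65747 times (WT) and 41487 and 55180 times (TgAD), far above each of the 10 members. miR-155-5p, of activated myeloid cells, was the lowest, with 327 reads in all. miR-146a-5p, induced by inflammatory signaling in microglia and astrocytes, was counted 2116 and 2090 times (WT) and 2250 and 4201 times (TgAD), close to miR-143-3p in 3 of the 4 libraries.

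TgAD was then compared with WT for every miRNA that passed edgeR's filter on low counts, 496 in all and 4 of the 10 described here. A difference was called where the log2 fold change was beyond 0.6 in either direction with an adjusted p under 0.1, which are cutoffs of the study. Of all tested miRNA 33.1% were called, and 17.3% were called and lower in TgAD neurons. With total counts in place of TMM, 73.9% of the called miRNA were lower in TgAD neurons against 52.4%, and the median log2 fold change of all tested miRNA moved from 0.032 to -0.23. Of the 4 members tested 1 was called, miR-451a, and the median of the 4 was 0.017. With the stringent cutoffs of 1 and 0.01, 4.44% of all tested miRNA were called and 0 of the 4 members, by edgeR and by DESeq2 alike, and 1 of the 4, miR-451a, had an unadjusted p under 0.05 in edgeR (0.0214). With 2 libraries against 2 an exact permutation test of a single miRNA cannot go below a two-sided p of 0.33, so the test draws on the spread shared across miRNA.

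miR-451a was lower in TgAD, with a mean of 801 ± 220 CPM against 1319 ± 14.8 CPM for WT (SD, n = 2 per genotype). Its level fell by 39.3%, and the log2 fold change was -0.72 (SE 0.238, 95% interval -1.29 to -0.15, edgeR quasi-likelihood test, Benjamini-Hochberg adjusted p = 0.0707). The log2 fold change was below 0 under all 14 alternatives, but with the correction for GC content it was only -0.052 (SE 0.245). The alternatives reuse the same libraries or, for the normalized table, columns whose names do not match the count tables. Their shared sign is therefore no separate support for a genotype difference. The call was not the same, and the adjusted p of the alternatives ran from 0.00566 to 0.907 in edgeR or DESeq2 (plot of settings). Without WT 1 or without WT 2 the log2 fold change was -0.72 in each case, and the adjusted p rose to 0.132 and 0.125 in the same test. Without TgAD 2 it was -0.43 (adjusted p = 0.212, same edgeR test) and without TgAD 1 it was -1.13 (adjusted p = 0.0285, same edgeR test), so that its size rested on which TgAD library was kept. Scaled to 6 neuron-enriched miRNA it was -0.68 (adjusted p = 0.20, same edgeR test). With the columns of the normalized table taken by name it was -1.59 (adjusted p = 0.443, same edgeR test), where the column that matches no count table held 147 reads of miR-451a. There the column named for WT 1 holds the counts of TgAD 1, so this value is no contrast of the count tables' genotypes.

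**Figure D3:**
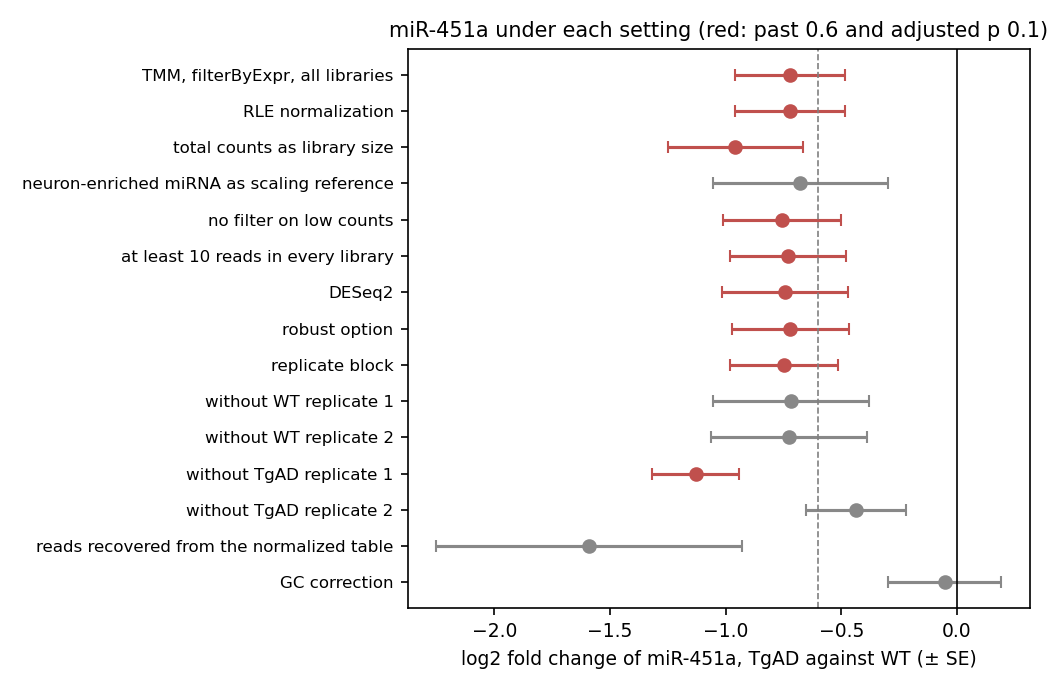
log2 fold change of miR-451a, TgAD against WT (x axis, ± SE), under each setting (y axis); red points are past a log2 fold change of 0.6 (dashed line) and an adjusted p of 0.1. The values run from -1.59 with the normalized table to -0.052 with a correction for GC content, and 9 of the 15 settings are red.

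GC content moved with this result. The mature miR-451a has 36.4% G and C, and of the 104 other tested miRNA within 5 points of it 78 were lower in TgAD neurons, 35 of them past the cutoffs, with a median log2 fold change of -0.46 (quartiles -1.12 and -0.020). After each library was corrected for GC content by a local regression, the log2 fold change of miR-451a was -0.052 (edgeR quasi-likelihood test, Benjamini-Hochberg adjusted p = 0.907). The correction takes out any difference between libraries that follows GC content, whatever its source, and that source was not tested. The uncorrected value of miR-451a lay between the quartiles of the miRNA of like GC content.

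**Figure D4:**
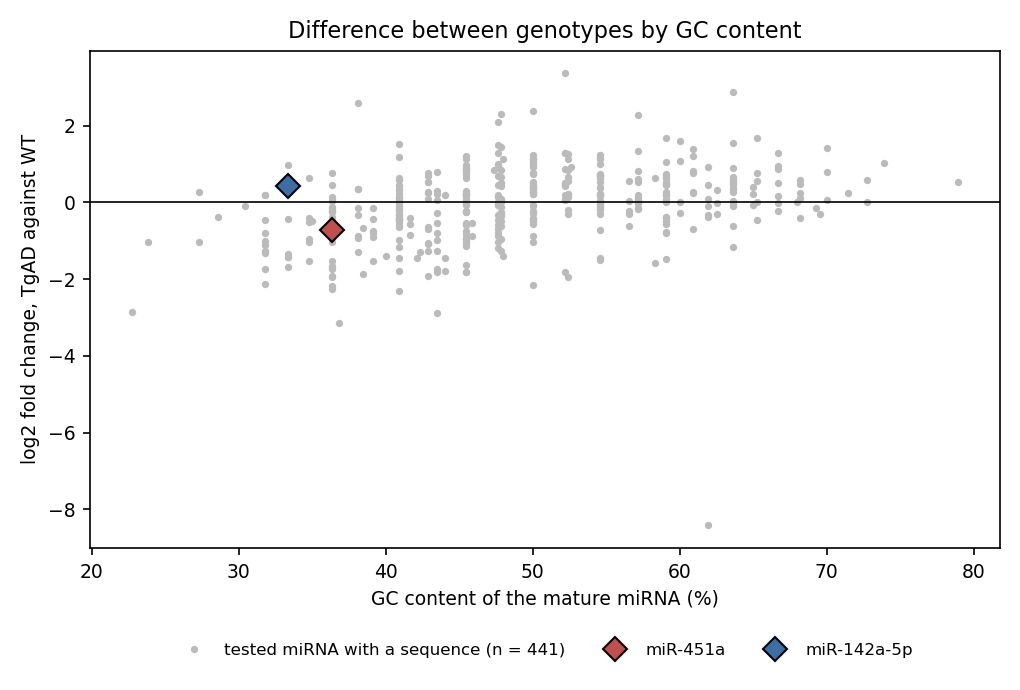
log2 fold change of TgAD against WT (y axis) against the GC content of the mature miRNA (x axis, percent) for the 441 tested miRNA with a sequence (grey), with miR-451a (red) and miR-142a-5p (blue). miR-451a, at 36.4% and -0.72, lies among low-GC miRNA with a median of -0.46, and miR-142a-5p, at 33.3% and 0.44, lies above a median of -0.71; the single point near the bottom is a miRNA with 0 reads in both TgAD libraries, whose fitted value depends on the prior count.

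The haematopoietic miR-142a-5p had a mean of 8.76 ± 0.249 CPM for WT and 11.8 ± 1.24 CPM for TgAD (SD, n = 2 per genotype). The log2 fold change was 0.44 and not past the cutoffs (SE 0.320, 95% interval -0.34 to 1.21, edgeR quasi-likelihood test, Benjamini-Hochberg adjusted p = 0.371). The libraries of the genotypes did not overlap for 2 of the 4 tested members, miR-451a and miR-142a-5p, in opposite directions, and for 63.1% of all tested miRNA, so this count is no result about the members. The 62 other tested miRNA within 5 points of its 33.3% GC content had a median log2 fold change of -0.71. After the correction for GC content that of miR-142a-5p was 1.24 (adjusted p = 0.0396, same edgeR test), past the cutoffs, whereas with the normalized table it was -0.19. miR-142a-5p had 127 reads in all. The call of its difference depended on the GC correction, and its sign turned only with the normalized table, whose column names do not match the count tables.

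For neither mural miRNA was the difference between genotypes larger than the spread between replicates. miR-143-3p had a mean of 792 ± 124 CPM for WT and 773 ± 44.8 CPM for TgAD (SD, n = 2 per genotype), and the log2 fold change was -0.035 (95% interval -0.52 to 0.45, edgeR quasi-likelihood test, Benjamini-Hochberg adjusted p = 0.922). For miR-145a-5p the means were 17.5 ± 5.33 CPM (WT) and 18.4 ± 4.91 CPM (TgAD), and the log2 fold change was 0.068 (95% interval -0.80 to 0.93, adjusted p = 0.916, same edgeR test). Both had a direction that turned with the scaling, to -0.19 for miR-145a-5p with total counts and to 0.049 for miR-143-3p scaled to neuron-enriched miRNA. The erythroid and the mural miRNA with the most reads thus differed in whether they passed the cutoffs, and the difference between their fold changes was not tested.

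**Figure D5:**
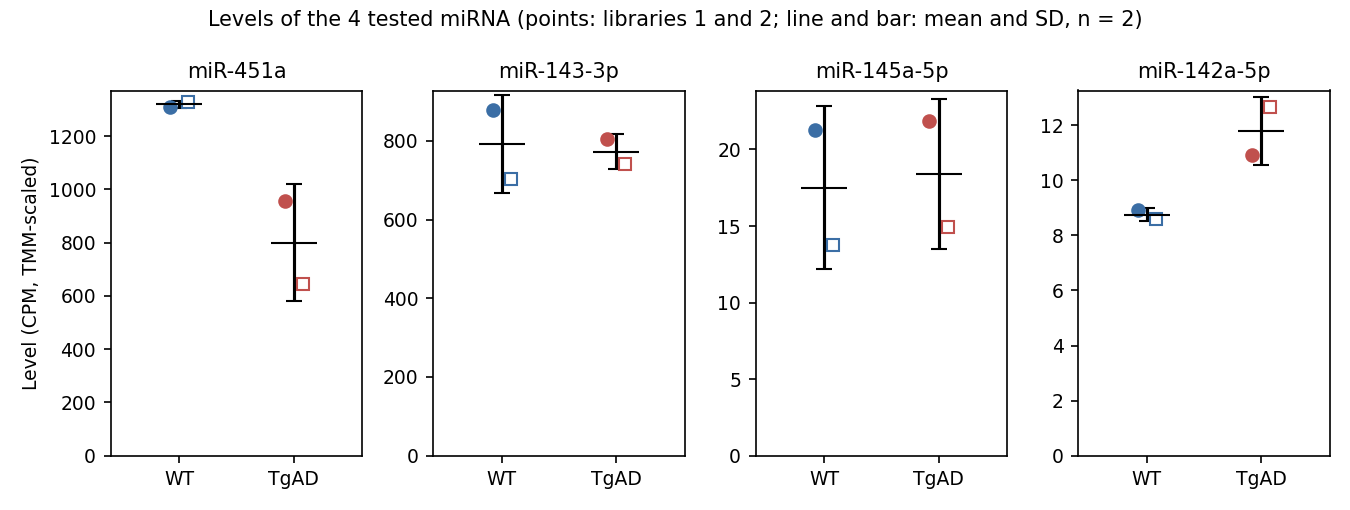
Levels of the 4 tested miRNA (y axes, CPM after TMM scaling, from 0) in WT and TgAD libraries (x axis); points are libraries, lines and bars the mean and SD (n = 2). miR-451a has a mean of 1319 ± 14.8 CPM for WT and 801 ± 220 CPM for TgAD, and the genotypes overlap for miR-143-3p and miR-145a-5p.

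Of the marker lists used for comparison, the neuron-enriched list had 7 miRNA tested and 3 called, with miR-128-3p and miR-132-3p higher in TgAD neurons (log2 fold changes 1.49 and 0.95) and miR-137-3p lower (-1.53). Of the epithelial list 3 were tested and 1 was called, miR-200c-3p, with a mean of 11.7 ± 0.917 CPM for WT and 3.55 ± 1.16 CPM for TgAD (SD, n = 2 per genotype). Of the remaining lists, the glial and inflammatory list had 3 tested, all with an unadjusted p of at least 0.0863 in edgeR and so none called, and the oligodendroglial, muscle and liver lists had none that passed the filter on low counts. The neuron-enriched miRNA took 3.03% and 4.27% of the reads in WT and 8.99% and 5.42% in TgAD libraries, so a ratio of the erythroid to the neuron-enriched reads falls more between genotypes than the erythroid share itself.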

How the data were processed

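Small RNA of primary cortical neurons was sequenced from 2 WT and 2 TgAD embryos' cultures. The authors mapped adapter-trimmed reads to GRCm38 (GRCm38.p6 per the labels) with Bowtie2 without mismatch and deposited raw counts per mature miRNA, made with HTSeq-count and the miRBase 22.1 annotation. Its strand setting, and what was done with reads at several loci, are not given in the sources used here. The authors also deposited a normalized table, a signal of counts divided by a size factor, in which 100% of values were whole multiples of 1 read (tolerance 0.001). On those reads edgeR called 0 of 480 tested miRNA, with 54 at an unadjusted p under 0.05. Counts were tested with edgeR 4.0.16 in R 4.3.3 (TMM, filterByExpr, quasi-likelihood test, genotype as the only factor, Benjamini-Hochberg adjustment over all tested miRNA). The procedure was tested on simulated data. DESeq2 1.42.0 was an alternative. The standard error is the log2 fold change divided by the root of F. Arms, loci and GC content came from the RefSeq table with Python 3.11.15. The members and marker lists were chosen with earlier results of these data known. The text names the 10 members, the other arms of their hairpins, the miRNA on the opposite strand, and of the marker lists those past the cutoffs and the most and least abundant. The other members of the lists that are named, and miR-101a-3p, miR-344f-5p, miR-295-3p, miR-3964 and miR-497b, were chosen after their values were seen. The p values rest on the spread between these libraries as shared across miRNA. Each library is from 1 embryo's culture according to the methods.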

Additional observations from a re-analysis of the deposited data

Results flagged for a closer look

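In the normalized table, the column named for TgAD 2, which equals none of the count tables, held a value of 3766 for miR-143-3p. The columns named for WT held 1926 and 2167, and that named for TgAD 1 held 1768. In the column named for TgAD 2, 1 read stood for 1.80, against 0.872 and 1.05 in the columns named for WT and 0.593 in that named for TgAD 1. The value of 3766 thus rests on 2087 reads, against 2208 and 2067 reads in the columns named for WT and 2981 in that named for TgAD 1. It is given here because it lies in data outside the count tables and, on this scale, above both columns named for WT. In the same column miR-451a was at 265, against 2289 and 3225 in the columns named for WT and 1539 in that named for TgAD 1. Which culture this column came from was not tested.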

How the results depend on the processing

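The count of members past the cutoffs (1) was unchanged under RLE, total counts, both other filters, DESeq2, the robust option and the replicate block. Without a filter on low counts it was 1 of 7 members tested, miR-451a, with 185 of 1131 miRNA called. It was 0 with neuron-enriched scaling and with the normalized table, whose count over all miRNA was 0 in edgeR (54 at an unadjusted p under 0.05), and ran from 0 to 1 with each library left out. In these last fits a lone library is assumed to vary like the other genotype. Reversed directions were those of miR-145a-5p (-0.19 with total counts, -0.25 with the normalized table, -0.31 to 0.42 with libraries left out), miR-143-3p (0.049 with neuron-enriched scaling, 0.46 with the normalized table, -0.20 to 0.15 with libraries left out) and miR-142a-5p (-0.19 with the normalized table). The GC correction covered miR-451a and miR-142a-5p, since the others tested have no sequence here, and of these 2 it called 1, miR-142a-5p in place of miR-451a. Without miR-99a-5p in the denominator, the erythroid share was 0.173% in WT and 0.105% in TgAD, the haematopoietic 0.00141% and 0.00198%, and the mural 0.106% and 0.103%. With both arms the haematopoietic share in WT was 0.00126%. The log2 ratio of TgAD to WT shares moved with neuron-enriched miRNA as denominator, which miR-128-3p dominates. It went from -0.96 to -2.0 (erythroid), from 0.24 to -0.71 (haematopoietic) and from -0.29 to -1.31 (mural). With TMM scaling it was -0.72 (erythroid), 0.51 (haematopoietic) and -0.033 (mural). The labels give same-numbered libraries a shared number and do not say whether they shared a litter or a batch. Deviations of WT 1 and TgAD 1 from their group means correlated at r = 0.22 over 496 miRNA, which does not decide this. The replicate block gave 188 calls against 164, with miR-451a at -0.75.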
